A study of Mus musculus with 18 samples.

Results

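The genes described here are 35 protein-coding genes of the mouse germline, chosen by name: 14 of the piRNA pathway and genome defence, 12 of meiosis, 6 of other germ cell functions and 3 germline transcription factors. All 35 were found among the 17818 gene symbols of the embryonic stem (ES) cell expression table and the 17813 of the fibroblast table. Where a symbol had several RefSeq transcripts, the one with the highest mean of both libraries was kept. H3K9me3 and KAP1 regions were assigned to a gene when an edge lay within 20 kb of its start.

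Expression was measured by RNA sequencing in 4 groups of C57BL/6 cells: Trim28-knockout ES3 cells, 4 days after Cre was induced with 4-hydroxytamoxifen (4-OHT); wild-type ES3 cells cultured for 4 days; Trim28-knockout mouse embryonic fibroblasts (MEFs), 5 days after the same induction; and wild-type MEFs cultured for 5 days. ES3 cells were grown on gelatin in serum with LIF. Both knockouts were made with an inducible Cre, and the labels do not say whether wild-type cells also received 4-OHT. Duplicate cultures were pooled before RNA extraction, so each group is 1 library, there is no replicate error, and no difference below carries a test. H3K9me3, a repressive histone mark, and KAP1, the protein encoded by Trim28, were mapped by chromatin immunoprecipitation in ES3 cells of both genotypes. Per the labels, the mark was only lowered, not absent, in knockout cells at this time.

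Germline genes of this kind are shut off in the soma, in many cases by DNA methylation of CpG-rich promoters, which the enzymes DNMT3B and DNMT1 set and copy. In ES cells, where methylation is incomplete, a Polycomb complex with E2F6, MGA and MAX, as well as the H3K9 methyltransferases SETDB1 and EHMT2, also holds many of them down. KAP1 is a corepressor brought to DNA by KRAB zinc-finger proteins, and there it recruits SETDB1 to write H3K9me3. The piRNA pathway, to which many of these genes belong, silences transposons in male germ cells through small RNAs bound by PIWI proteins.

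The deletion was checked first in the target gene. Trim28 (NM_011588; mm9 chr7:13609501-13616384) had 37.2 RPKM in knockout ES3 cells and 1051 RPKM in wild-type ES3 cells, so that 3.54% of the wild-type level was left. In MEFs the values were 5.84 RPKM in knockout and 62.8 RPKM in wild type, or 9.29%. RPKM is reads scaled to transcript length and library size, as the authors computed it, and levels of different genes are compared only on this per-length scale. As a check of cell type, 8 fibroblast genes summed to 3343 RPKM in knockout and 4047 RPKM in wild-type MEFs, against 19.7 and 3.37 RPKM in knockout and wild-type ES3 cells. A list of 8 pluripotency genes summed to 740.8 and 1377 RPKM in knockout and wild-type ES3 cells, against 32.8 and 42.7 RPKM in MEFs. Not all of that list was absent from MEFs. Klf4 had 28.2 RPKM in knockout and 38.2 RPKM in wild-type MEFs, Tbx3 2.81 and 3.54 RPKM, and Nanog 1.65 and 0.967 RPKM. Pou5f1 was listed at 0 in both MEF libraries. The number of reads per library is not known.

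The promoters of these genes are shown first because CpG content and short motifs are what textbook accounts of their control rest on. Promoters of 300 bases, 250 before to 50 after the start, were found for 32 of the 35 genes in RefSeq, assembly GRCm38.p6, a different build from the mm9 coordinates of the deposited regions. Piwil2, Spo11 and Tex15 had no entry. The 6 printed here belong to 4 genes with an H3K9me3 region within 1 kb of the start in wild-type ES3 cells (Fkbp6, Dazl, Ddx4, Mael), to D1Pas1, which had such a region inside the gene and was 2-fold lower in knockout cells, and to Tex19.1, the most abundant of the 35 in ES3 cells. Dpep3 and Tdrkh also had such a region within 1 kb and are not printed. Capitals mark TCCCGC, a core of E2F-type sites, on either strand (GCGGGA on the printed one), and CACGTG, a palindromic E-box to which MAX dimers can bind. The positions, in GRCm38.p6, are chr5:135349995-135350294 (minus strand) for Fkbp6, chr17:50293571-50293870 (minus) for Dazl, chr13:112652261-112652560 (minus) for Ddx4, chr1:166238695-166238994 (minus) for Mael, chr1:186967166-186967465 (plus) for D1Pas1 and chr11:121145893-121146192 (plus) for Tex19.1. Each is written 5′ to 3′ along the gene's strand.
Fkbp6: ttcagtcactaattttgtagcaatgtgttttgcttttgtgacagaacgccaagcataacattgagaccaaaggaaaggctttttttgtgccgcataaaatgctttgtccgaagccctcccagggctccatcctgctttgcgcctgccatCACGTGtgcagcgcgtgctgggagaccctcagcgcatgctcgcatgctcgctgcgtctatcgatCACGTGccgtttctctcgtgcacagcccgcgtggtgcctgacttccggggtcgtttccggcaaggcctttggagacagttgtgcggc
Dazl: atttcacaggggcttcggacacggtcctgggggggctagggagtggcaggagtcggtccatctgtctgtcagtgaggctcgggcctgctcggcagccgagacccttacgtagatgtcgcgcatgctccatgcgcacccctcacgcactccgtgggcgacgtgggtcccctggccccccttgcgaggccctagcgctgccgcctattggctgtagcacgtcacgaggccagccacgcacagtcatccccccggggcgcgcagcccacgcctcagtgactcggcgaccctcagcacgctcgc
Ddx4: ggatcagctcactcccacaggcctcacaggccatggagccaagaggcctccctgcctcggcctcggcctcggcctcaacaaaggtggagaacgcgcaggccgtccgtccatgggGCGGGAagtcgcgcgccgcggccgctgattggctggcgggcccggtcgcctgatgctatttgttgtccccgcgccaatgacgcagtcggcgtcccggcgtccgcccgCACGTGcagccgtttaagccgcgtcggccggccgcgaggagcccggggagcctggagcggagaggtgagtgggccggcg
Mael: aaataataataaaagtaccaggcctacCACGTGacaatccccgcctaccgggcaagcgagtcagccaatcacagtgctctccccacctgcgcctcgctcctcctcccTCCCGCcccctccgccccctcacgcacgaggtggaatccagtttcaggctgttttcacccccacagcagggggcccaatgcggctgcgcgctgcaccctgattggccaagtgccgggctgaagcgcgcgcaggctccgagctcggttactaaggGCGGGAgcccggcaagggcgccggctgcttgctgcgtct
D1Pas1: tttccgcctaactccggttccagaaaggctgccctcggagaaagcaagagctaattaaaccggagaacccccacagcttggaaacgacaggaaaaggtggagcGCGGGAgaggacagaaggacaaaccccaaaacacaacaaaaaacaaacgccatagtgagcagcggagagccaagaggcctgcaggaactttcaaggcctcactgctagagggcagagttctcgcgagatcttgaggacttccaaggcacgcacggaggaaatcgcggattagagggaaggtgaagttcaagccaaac
Tex19.1: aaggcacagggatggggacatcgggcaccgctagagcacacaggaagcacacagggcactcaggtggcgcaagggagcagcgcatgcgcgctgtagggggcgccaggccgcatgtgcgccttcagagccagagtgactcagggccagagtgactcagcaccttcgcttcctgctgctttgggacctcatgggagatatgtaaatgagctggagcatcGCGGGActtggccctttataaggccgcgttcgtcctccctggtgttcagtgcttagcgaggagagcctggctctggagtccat

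Among the germline promoters the CACGTG E-box was found in 12 of 32 (37.5%), against 9.21% of the 12309 symbols with a promoter. TCCCGC was found in 14 of 32 (43.8%), against 31.2% of all promoters. Both motifs stood together in 6 promoters (18.8%, against 3.43%), those of Ddx4, Mael, Sycp1, Sycp3, Hormad1 and Slc25a31, and at least one of them stood in 20 (62.5%, against 37.0%). Both strands were searched, and in the 6 promoters with both motifs no matches overlapped. Fkbp6 had 2 E-boxes, with first bases 101 and 37 bases before the start, and Mael had 2 TCCCGC matches and 1 E-box. Neither motif was in the Dazl window, nor in those of Dpep3 and Tdrkh. These matches describe letters in a window, and binding of any factor was not measured.

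**Figure D1:**
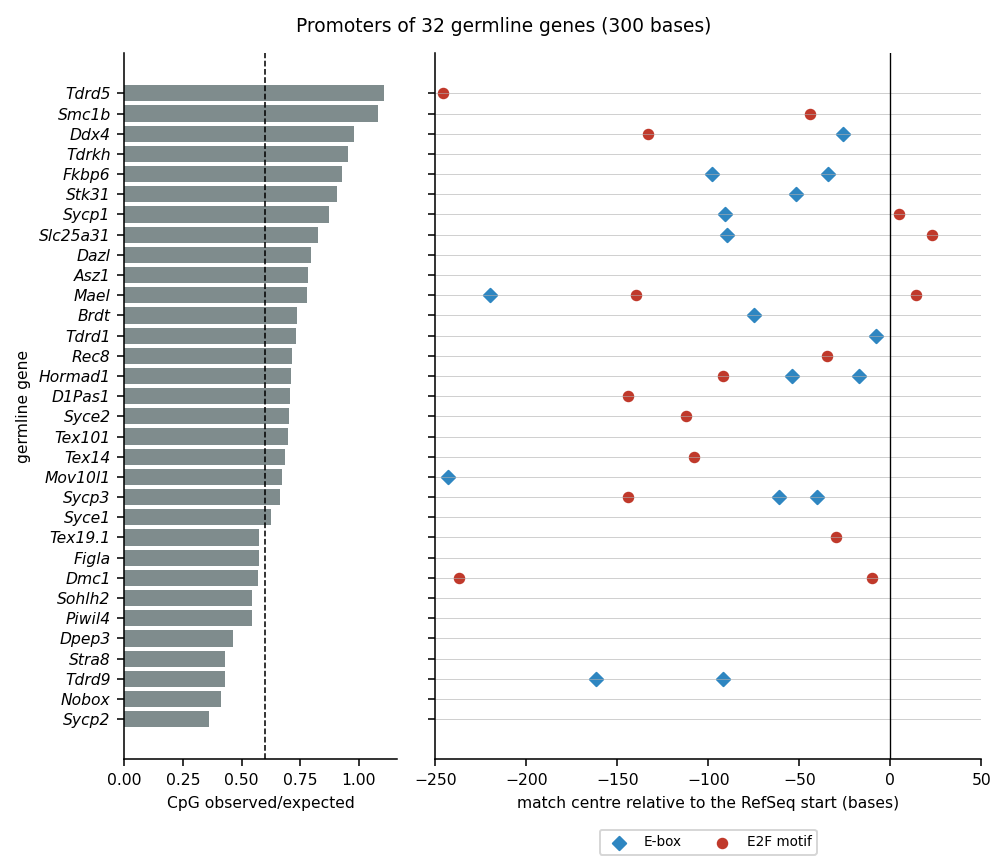
Left, observed-to-expected CpG ratio of the 300-base promoters of 32 germline genes, 1 row per gene, with a dashed line at 0.6; right, centres of TCCCGC (E2F motif) and CACGTG (E-box) matches as distance in bases from the gene start. The motifs were found in 20 of the 32 promoters, and 6 hold both.

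The observed-to-expected CpG ratio, which is near 1 where CpGs have not been lost by methylation over evolution, had a median of 0.705 over the 32 germline promoters and 0.694 over all promoters. CpG-rich promoters, with a ratio over 0.6 and a GC content over 50%, made up 22 of 32 (68.8%), against 56.3% of all. Tdrd5, which encodes a tudor-domain protein of germ granules, had the highest ratio, 1.11, and Sycp2, which encodes an axial element protein of meiotic chromosomes, the lowest, 0.363. Stra8 (0.430), Tdrd9 (0.430), Nobox (0.411) and Dpep3 (0.462) were also low. DNA methylation itself was not measured in the data used here.

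The word silenced, which the working name of this set carries, did not hold for all members in ES3 cells. In knockout ES3 cells 17 of 35 (48.6%) stood at 1 RPKM or more, and in wild-type ES3 cells 15 (42.9%), against 65.7% and 60.7% of all symbols in knockout and wild type. Tex19.1, which limits transposon activity in germ cells and placenta and is also known from pluripotent cells, was the most abundant in both ES3 libraries. Spo11, which makes the DNA breaks of meiosis, was the only member listed at 0 in wild-type ES3 cells, and Asz1 and Figla were listed at 0 in knockout cells. The median over the 35 was 0.992 RPKM in knockout and 0.491 RPKM in wild-type ES3 cells; over all symbols it was 3.51 and 2.49 RPKM. In MEFs, by contrast, a single member reached 1 RPKM in either genotype, and 18 in knockout and 17 in wild type were listed at 0 (51.4% and 48.6%, against 12.5% and 11.7% of all symbols).

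**Figure D2:**
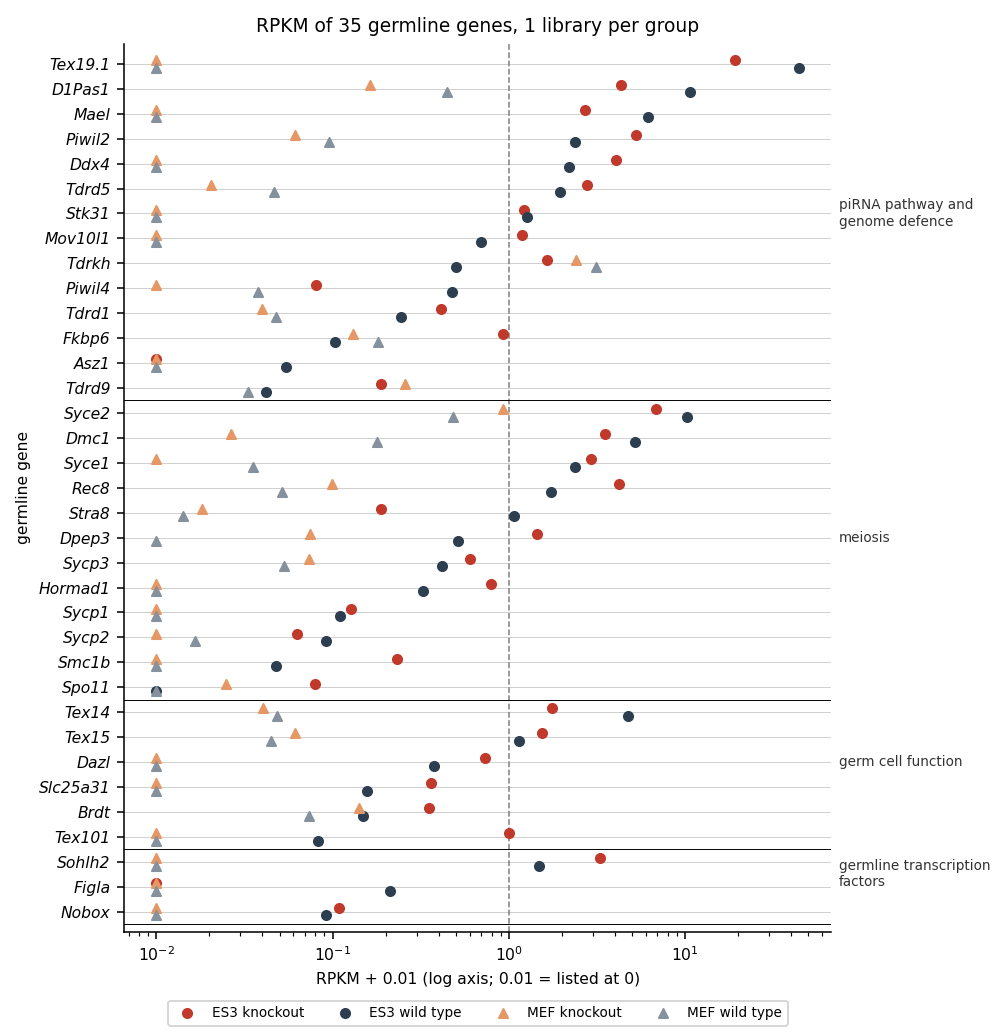
RPKM + 0.01 on a log axis for the 35 germline genes, grouped by role, in the 4 libraries (circles, ES3 cells; triangles, MEFs; 1 library per group); the dashed line marks 1. Tex19.1 is rightmost with 19.4 RPKM in knockout and 44.8 RPKM in wild-type ES3 cells, while Tdrkh alone lies past the line in MEFs.

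The difference between cell types was taken in wild type alone. Of the 35, 16 were at 1 RPKM or more in wild-type ES3 cells or wild-type MEFs. Of these, 15 were at least 2-fold higher in ES3 cells (29.6% of the 12166 symbols measured were) and 1, Tdrkh, was at least 2-fold lower (22.4%). Here and below, ratios are log2 of the RPKM plus 1, which understates the difference of low genes. The 2 tables were scaled separately by the authors, so these ratios also carry any difference in scale between them. The largest were 5.52 for Tex19.1, 3.02 for D1Pas1, 2.95 for Syce2 and 2.84 for Mael. The median was 1.66, against 0.28 for all measured symbols. Each of the 16 reached 1 RPKM only in the library where it was higher (the 15 in ES3 cells, Tdrkh in MEFs), so the filter largely fixes this split and median, which are given as a description. Tdrkh, which encodes a tudor and KH-domain protein needed to trim piRNAs, had 0.491 RPKM in wild-type ES3 cells and 3.14 RPKM in wild-type MEFs, a log2 ratio of -1.47.

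In ES3 cells 4 days after deletion, no germline gene was 2-fold or more higher and 3 were 2-fold or more lower in the knockout library on the log2(RPKM + 1) scale. The lower ones were Tex19.1, D1Pas1 and Tex14. Among the 12024 symbols that reached 1 RPKM in at least one library, 12.5% were 2-fold or more higher and 3.18% lower. The germline genes that reached this level numbered 18 of 35, of which 10 had a ratio above 0 and 8 below. Over all 12024 symbols, 6665 were above 0 and 5359 below, a similar split. The remaining 17 germline genes were under 1 RPKM in both libraries and cannot pass 2-fold on this scale. The median log2 ratio of the 18 was 0.23, against 0.08 for all measured symbols, and it was -0.75 over the 6 members at 5 RPKM or more in either library. With a pseudocount of 5 RPKM the calls of D1Pas1 (-0.74) and Tex14 (-0.53) were lost. Of the 18, Mov10l1, Tdrkh and Dpep3 reached 1 RPKM through the knockout library alone and Stra8 through the wild-type library alone. This fixed the sign of each of these ratios, which enter the counts by sign and the median above. With 1 library per group, it is not known how far such ratios would vary between cultures.

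Among the genes of the piRNA pathway and genome defence, Tex19.1 and D1Pas1 were 2-fold or more lower in the knockout. Tex19.1 (NM_028602; mm9 chr11:121007457-121009633) had 19.4 RPKM in knockout and 44.8 RPKM in wild-type ES3 cells, a log2 ratio of -1.17, and was listed at 0 in both MEF libraries. D1Pas1, a testis-expressed DEAD-box helicase derived from a copy of Ddx3x, had 4.36 RPKM in knockout and 10.7 RPKM in wild-type ES3 cells (log2 ratio -1.12), and 0.153 RPKM in knockout and 0.437 RPKM in wild-type MEFs. How reads shared with Ddx3x were counted is not given in the sources used here, so the D1Pas1 values are uncertain. Mael, which acts in transposon silencing by piRNAs, had 2.70 RPKM in knockout and 6.18 RPKM in wild-type ES3 cells, a log2 ratio of -0.96 that lay just short of 2-fold, and was at 0 in MEFs.

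Other members of the same pathway had higher values in the knockout ES3 library, though none by 2-fold on this scale. Piwil2, a PIWI protein that binds piRNAs, had 5.31 RPKM in knockout and 2.37 RPKM in wild-type ES3 cells (log2 ratio 0.91), against 0.0512 and 0.0849 RPKM in knockout and wild-type MEFs. Ddx4, the germ cell helicase known as mouse vasa homologue, had 4.06 RPKM in knockout and 2.20 RPKM in wild-type ES3 cells (log2 ratio 0.66), and 0 in MEFs. Tdrd5 had 2.76 RPKM in knockout and 1.96 RPKM in wild-type ES3 cells (0.35), and under 0.04 RPKM in MEFs. Tdrkh had 1.64 RPKM in knockout and 0.491 RPKM in wild-type ES3 cells (0.82). Mov10l1, an RNA helicase that feeds piRNA precursors into processing, had 1.18 RPKM in knockout and 0.684 RPKM in wild-type ES3 cells (0.37), and Stk31, which joins a tudor domain to a kinase-like domain, had 1.22 RPKM in knockout and 1.26 RPKM in wild type (-0.03). Both were at 0 in the MEF libraries. The piRNA group therefore held both directions: 5 of its 9 measured members had a ratio above 0 and 4 below, with a median of 0.35. For Tdrkh and Mov10l1 the filter fixed the sign.

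A further 5 piRNA genes stayed under 1 RPKM in all 4 libraries. Fkbp6, a cochaperone needed for piRNA loading, had 0.922 RPKM in knockout and 0.0926 RPKM in wild-type ES3 cells, a log2 ratio of 0.81. In MEFs it had 0.121 RPKM in knockout and 0.171 RPKM in wild type. Tdrd1, Tdrd9, Piwil4 (the nuclear PIWI protein MIWI2) and Asz1 lay between 0 and 0.467 RPKM in the ES3 libraries and between 0 and 0.247 RPKM in the MEF libraries. Of these, Piwil4 and Asz1 had their higher ES3 value in wild type, Piwil4 with 0.0706 RPKM in knockout and 0.467 RPKM in wild-type cells.

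Of the 12 meiosis genes, 6 were measured in ES3 cells, and none of these differed by 2-fold or more on the log2(RPKM + 1) scale. They split evenly by sign, with a median of -0.12, and the filter fixed the signs of Dpep3 and Stra8. The other 6 were under 1 RPKM in both ES3 libraries, where this scale cannot reach 2-fold. By the deposited quotient, used further below, Rec8, Dpep3, Smc1b and Hormad1 were past 2-fold higher (22.4% of all symbols were) and Stra8 lower (5.88%). Smc1b and Hormad1 were under 1 RPKM in both ES3 libraries. Syce2, a central element protein of the synaptonemal complex that holds paired chromosomes together, was the most abundant, with 6.84 RPKM in knockout and 10.4 RPKM in wild-type ES3 cells (log2 ratio -0.54). In MEFs it had 0.916 RPKM in knockout and 0.474 RPKM in wild type, from another transcript than in ES3 cells. Dmc1, the recombinase of meiotic strand exchange, had 3.52 RPKM in knockout and 5.24 RPKM in wild-type ES3 cells (-0.46), and 0.0164 and 0.168 RPKM in knockout and wild-type MEFs. Rec8, the meiotic cohesin subunit, lay closest to 2-fold higher, with 4.25 RPKM in knockout and 1.74 RPKM in wild-type ES3 cells (0.94), and 0.0892 and 0.0417 RPKM in knockout and wild-type MEFs.

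Syce1, another central element protein, had 2.91 RPKM in knockout and 2.37 RPKM in wild-type ES3 cells (0.21), and at most 0.0252 RPKM in MEFs. Dpep3, a membrane dipeptidase of testis, had 1.44 RPKM in knockout and 0.504 RPKM in wild-type ES3 cells (0.70), and at most 0.0642 RPKM in MEFs. Stra8, the retinoic-acid-induced gene of meiotic entry, had 0.179 RPKM in knockout and 1.06 RPKM in wild-type ES3 cells (-0.81), and under 0.01 RPKM in MEFs. Stra8 thus stood opposite to Rec8, which is also known to respond to retinoic acid. The other 6 (Sycp1, Sycp2, Sycp3, Hormad1, Smc1b and Spo11, which build the chromosome axis and synaptonemal complex, hold sister chromatids together or cut DNA) lay between 0 and 0.783 RPKM in ES3 cells and between 0 and 0.0635 RPKM in MEFs.

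Of the 6 genes of other germ cell functions, Tex14 was lower in knockout ES3 cells. Tex14 (NM_031386; mm9 chr11:87218567-87369325), needed for the cytoplasmic bridges between germ cells, had 1.74 RPKM in knockout and 4.74 RPKM in wild-type ES3 cells (log2 ratio -1.07), and 0.0301 and 0.0385 RPKM in knockout and wild-type MEFs. Tex15, which acts in meiotic break repair and in piRNA-directed silencing, had 1.53 RPKM in knockout and 1.14 RPKM in wild-type ES3 cells (0.24), and 0.0513 and 0.0350 RPKM in knockout and wild-type MEFs. Tex101, a surface protein of germ cells, had 0.992 RPKM in knockout and 0.0731 RPKM in wild-type ES3 cells (0.89), and 0 in MEFs. Dazl, an RNA-binding regulator of germ cell development, had 0.722 RPKM in knockout and 0.367 RPKM in wild-type ES3 cells (0.33), and 0 in MEFs. Brdt, a bromodomain protein of spermatogenesis, and Slc25a31, an ADP/ATP carrier of sperm, lay between 0.139 and 0.354 RPKM in ES3 cells. In MEFs Brdt had 0.132 RPKM in knockout and 0.0638 RPKM in wild type, and Slc25a31 was at 0.

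Sohlh2, a transcription factor of spermatogonia and oocytes, had 3.30 RPKM in knockout and 1.47 RPKM in wild-type ES3 cells (log2 ratio 0.80). The oocyte factors Figla and Nobox lay between 0 and 0.203 RPKM in ES3 cells. All of these transcription factors were listed at 0 in both MEF libraries. The 2 members just past 2-fold in ES3 cells were Tex14 (-1.07) and D1Pas1 (-1.12), and the 2 just short of it were Mael (-0.96) and Rec8 (0.94), so the calls turn on small steps in the ratio.

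**Figure D3:**
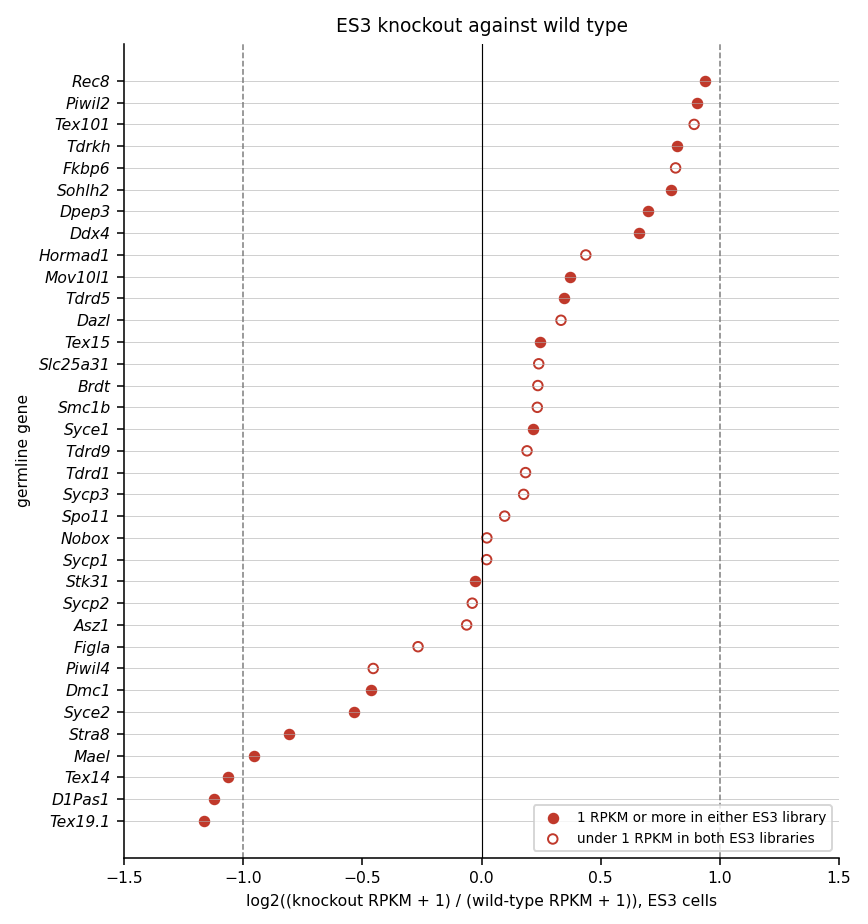
log2((RPKM + 1) in knockout over (RPKM + 1) in wild type) of the 35 germline genes in ES3 cells (filled, 1 RPKM or more in either library; open, under 1 RPKM in both; 1 library per genotype); dashed lines mark 2-fold. Tex19.1 (-1.17), D1Pas1 (-1.12) and Tex14 (-1.07) lie past the lower line and no gene lies past the upper one. Open points cannot pass either line, because both of their values are under 1 RPKM.

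Most of these genes are low, and the choice of pseudocount moved how many passed 2-fold. Using the quotient of the deposited values where both libraries were above 0, an alternative chosen after seeing the data, 12 of 32 germline genes were 2-fold or more higher in knockout ES3 cells (22.4% of all 15617 such symbols were) and 6 were 2-fold or more lower (5.88%). The quotient of knockout over wild type was 13.6 for Tex101, 9.95 for Fkbp6, 5.82 for Smc1b, 5.56 for Tdrd9, 3.33 for Tdrkh and 2.86 for Dpep3. It was also past 2-fold higher for Piwil2, Hormad1, Rec8, Brdt, Slc25a31 and Sohlh2. The lower ones were Stra8 (0.168), Piwil4 (0.151), Tex14 (0.368), D1Pas1 (0.408), Tex19.1 (0.433) and Mael (0.437). The median quotient was 1.58 for the germline genes and 1.12 for all symbols. All of the 12 but Piwil2, Rec8 and Sohlh2 were under 1 RPKM in wild type, and with depth unknown no counting interval can be given for such low values.

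In MEFs Tdrkh was the only germline gene at 1 RPKM or more, with 2.39 RPKM in knockout and 3.14 RPKM in wild type (log2 ratio -0.29). No member was thus 2-fold or more higher (0.981% of the 10805 measured symbols were) or lower (4.84%). By the deposited quotient 15 members could be compared. Tdrd9, Rec8 and Brdt were 2-fold or more higher (4.66% of symbols) and D1Pas1, Tdrd5 and Dmc1 were 2-fold or more lower (14.2%), all at under 0.5 RPKM in both MEF libraries.

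Other gene lists were read in the same ES3 comparison. Of 14 genes of DNA methylation in the table, 13 were measured, 1 was 2-fold or more higher and 3 lower, with a median log2 ratio of -0.49. Dnmt3l, a cofactor of the de novo methyltransferases, had 93.3 RPKM in knockout and 285.9 RPKM in wild type (-1.61). Tet2 had 8.05 and 23.9 RPKM in knockout and wild type (-1.46), and Tet1 had 13.7 and 35.2 RPKM (-1.30); both oxidise 5-methylcytosine, so the lower genes include opposite activities. Mbd2, a reader of methylated DNA, had 13.6 RPKM in knockout and 4.66 RPKM in wild type (1.36). In MEFs 10 were measured and none was past 2-fold, with a median of -0.50.

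Of 23 genes listed here as candidate repressors of germline genes, 22 were measured in ES3 cells, with a median log2 ratio of -0.28. Cbx1, which encodes the H3K9me3-binding protein HP1-beta, was 2-fold or more lower, with 37.3 RPKM in knockout and 88.2 RPKM in wild type (-1.22). Yaf2, a subunit of variant Polycomb complexes, was 2-fold or more higher, with 3.24 RPKM in knockout and 1.10 RPKM in wild type (1.01). Atf7ip, the partner of SETDB1, and Mga were within 2-fold, at -0.82 and -0.75. In MEFs Mga was the only one past 2-fold, with 0.340 RPKM in knockout and 1.85 RPKM in wild type (-1.09), and the median was -0.24.

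Of 26 further meiosis and piRNA genes in the table, 14 were measured in ES3 cells, 1 was 2-fold or more higher and 0 lower, with a median of -0.10. Tdrd7, a tudor-domain protein of germ granules, was the higher one, with 2.70 RPKM in knockout and 0.283 RPKM in wild type (1.53). Hormad2 (0.94), Nanos3 (0.76) and Taf7l (0.70) followed within 2-fold, with 0.344, 0.739 and 0.318 RPKM in wild type. All of these named genes passed the filter through the knockout library alone, which fixed the sign of their ratios. In MEFs 6 were measured and none was past 2-fold. Of 14 genes of late spermatids and oocytes, Zp3, an egg coat protein, was alone at 1 RPKM or more in ES3 cells, with 3.17 RPKM in knockout and 10.9 RPKM in wild type (-1.52); none of the 14 reached 1 RPKM in MEFs. Of 9 measured genes of primordial germ cells, 4 were 2-fold or more lower and 0 higher, with a median of -0.96. These were Sox2 (-1.94), Prdm14 (-1.74), Prdm1 (-1.30) and Dppa5a (-1.11), of which Sox2 also belongs to the pluripotency list. In MEFs 1 gene of that list was measured, within 2-fold.

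Markers of other cell types moved in the same libraries. All 9 primitive endoderm genes were 2-fold or more higher in knockout ES3 cells, with a summed 880.5 RPKM in knockout and 45.1 RPKM in wild type. They were led by Col4a1 (5.97), Gata4 (4.94), Sox17 (3.72) and Gata6 (3.41). Of 8 pluripotency genes, 4 were 2-fold or more lower (Esrrb -2.00, Sox2 -1.94, Nanog -1.37, Klf4 -1.26) and the other 4 were below 0; the sum was 740.8 RPKM in knockout and 1377 RPKM in wild type. Fibroblast genes summed to 19.7 RPKM in knockout and 3.37 RPKM in wild-type ES3 cells, and 3 of the 5 measured were 2-fold or more higher, Col1a1 (2.94), Col3a1 (1.16) and Twist2 (1.02). The 7 genes of gonadal support cells in the table summed to 5.84 RPKM in knockout and 4.13 RPKM in wild type, with 2 measured, Dhh (0.94) and Star (0.02), and none past 2-fold. The part of these changes in the values of the germline genes was not tested, and in bulk RNA fewer cells of a type and less RNA per cell cannot be told apart. Gata4, Sox17, Gata6, Col1a1, Col3a1, Twist2 and Dhh were under 1 RPKM in wild-type ES3 cells, so passing the filter fixed the sign of their ratios. In MEFs neither the 5 measured primitive endoderm genes, the 3 pluripotency genes nor the 2 gonadal genes passed 2-fold, while of 8 fibroblast genes Twist2 was higher (1.24) and Postn lower (-1.56).

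H3K9me3 lay near some germline genes in both genotypes. Within 20 kb of the start, 11 of 35 (31.4%) had a region in knockout ES3 cells and 11 (31.4%) in wild-type ES3 cells, against 24.3% and 24.4% of all symbols. A region that the authors list as wild-type only lay within 20 kb of 7 members (20.0%), against 17.2% of all. At this distance the shares were near those of all genes. Close to the start they were further apart: within 1 kb, a window added after seeing the data, 5 members (14.3%) had a region in knockout cells, against 3.22% of all symbols, and 7 (20.0%) in wild-type cells, against 2.45%. Wild-type-only regions lay within 1 kb of 5 members (14.3%), against 0.96%. The lists hold 37221 regions in knockout cells, 37002 in wild-type cells and 19057 found in wild type only. Each is 1 call per genotype with no score, so a region missing from one list may lie just under its threshold.

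**Figure D4:**
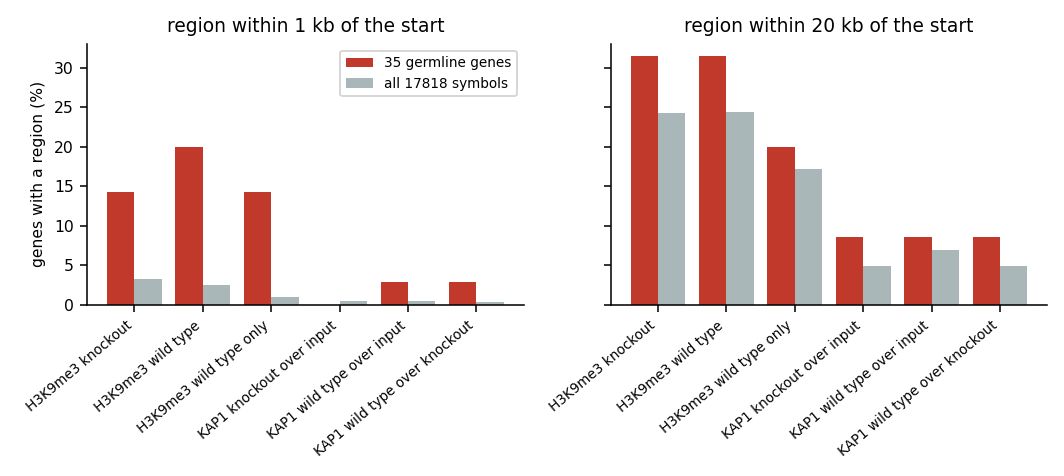
Percent of the 35 germline genes and of all 17818 symbols with a deposited region within 1 kb (left) and 20 kb (right) of the gene start, for the 6 region lists in ES3 cells. Within 1 kb the germline bars for H3K9me3 stand at 14.3% in knockout and 20.0% in wild-type cells, against 3.22% and 2.45% of all symbols.

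At 3 germline genes a region spanned the start in wild-type cells with no overlapping region in knockout cells. At Fkbp6 it ran over mm9 chr5:135824399-135828672, 4274 bp that cover the start, and another of 667 bp lay 9230 bp upstream, also in wild type only. At Dpep3 it covered chr8:108501099-108504690, 3592 bp on both sides of the start. At Dazl it covered chr17:50432877-50433628, 752 bp from position -704 to 47 relative to the start. The ES3 values of these genes, in knockout and wild type, were 0.922 and 0.0926 RPKM for Fkbp6, 1.44 and 0.504 RPKM for Dpep3, and 0.722 and 0.367 RPKM for Dazl. All were higher in the knockout library. So were 6665 of the 12024 measured symbols, a set that does not hold Fkbp6 and Dazl. Any link of these values to the regions missing in the knockout was not tested. Fkbp6 and Dazl were under 1 RPKM in both libraries, so a pseudocount of 1 RPKM kept them below 2-fold whatever their quotient. Dpep3 was below 2-fold on that scale and was measured through the knockout library alone, which fixed the sign of its ratio. Of the 194 measured symbols with a wild-type H3K9me3 region within 1 kb, kept or lost in the knockout, 37.1% were 2-fold or more higher in knockout ES3 cells and 3.09% lower. Those symbols do not include Fkbp6 and Dazl, so the share is no yardstick for them.

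Another 4 genes kept a region within 1 kb in the knockout. At Ddx4 a knockout region of 714 bp (chr13:113442723-113443436) lay inside the span of a wild-type region of 1777 bp (chr13:113441742-113443518). At D1Pas1 a knockout region of 1142 bp (chr1:188792130-188793271) lay inside a wild-type region of 2102 bp (chr1:188791785-188793886), both within the gene. At Mael a knockout region of 849 bp spanned the start (chr1:168168118-168168966), overlapping a wild-type region of 1860 bp (chr1:168166611-168168470), and a second wild-type region of 558 bp, 727 bp upstream, was absent from the knockout list. At Tdrkh a region of 389 bp in knockout and 524 bp in wild type lay about as far upstream in both, 551 and 548 bp, while a wild-type-only region of 991 bp began 82 bp inside the gene. The overlapping regions at these genes were shorter in the knockout list, as were regions over the whole lists, with a median of 587 bp in knockout and 702 bp in wild type. Of these 4, D1Pas1 and Mael had lower and Ddx4 and Tdrkh higher RPKM in the knockout library.

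Mov10l1 had a region in the knockout list alone, 1220 bp over its start (chr15:88812432-88813651), and another 11626 bp downstream. Knockout-only regions also lay near Brdt (2008 bp upstream), Piwil4 (5709 bp upstream), Tdrd1 (10485 bp downstream) and Asz1 (11759 bp upstream). Such regions further lay 6442 bp upstream of D1Pas1 and 10574 and 15894 bp upstream of Tex101, besides the regions these genes had in both genotypes. Tex101 had regions of both genotypes upstream, at 2182 bp in knockout and 2467 bp in wild type, and Nobox had overlapping ones at 14494 bp in knockout and 14535 bp in wild type. Wild-type-only regions lay 9234 bp downstream of the Tex19.1 start, 18927 bp downstream of the Mael start, and 15708 and 16511 bp upstream of Figla. The 3 genes called lower thus differed in their surroundings. D1Pas1 had the mark inside the gene in both genotypes, and a further region upstream in the knockout list alone. Tex19.1 had the mark at a distance in wild type, and Tex14 had no region within 20 kb.

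**Figure D5:**
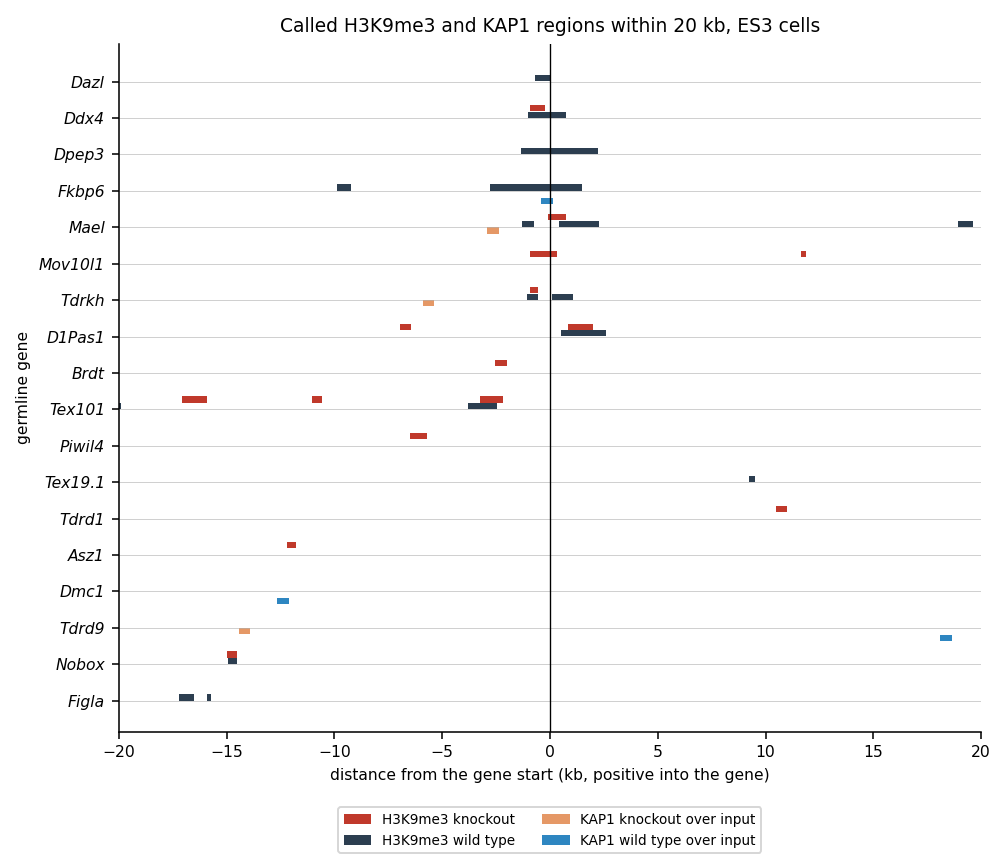
Deposited H3K9me3 regions and KAP1 peaks over input, in knockout and wild-type ES3 cells, within 20 kb of the start of each germline gene that has one, as distance from the start in kb (negative, upstream along the gene's strand). At Fkbp6 the wild-type H3K9me3 region and a wild-type KAP1 peak both cover the start, with no knockout region in the window.

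The KAP1 lists are short, with 1898 peaks in knockout over input, 3099 in wild type over input and 2382 in wild type over knockout. Each of the 3 lists had a peak within 20 kb of 3 of the 35 genes (8.57%), though not of the same genes. They were Mael, Tdrd9 and Tdrkh in knockout over input, and Dmc1, Fkbp6 and Tdrd9 in both wild-type lists. The knockout list comes from cells in which 3.54% of the wild-type Trim28 RNA was left. Whether its peaks mark remaining KAP1 or other signal was not tested, and those near Mael, Tdrd9 and Tdrkh scored under its median of 62.62. The shares over all symbols were 4.85% for knockout over input, 6.94% for wild type over input and 4.93% for wild type over knockout. Within 1 kb there was none in the knockout list (0.41% of all symbols) and 1 in each wild-type list, at Fkbp6 (0.46% over input and 0.314% over knockout). The Fkbp6 peak lay at chr5:135825741-135826305, from position -410 to 154 relative to the start. Its score, as deposited by the authors on a scale that is not stated, was 246.75 over input, rank 72 of 3099 peaks, and 198.85 over knockout, rank 62 of 2382. The nearest KAP1 peak of the knockout list was 30820 bp from the start, and the nearest knockout H3K9me3 region 82083 bp. The other peaks lay farther off and scored lower in their lists: at Tdrd9, 13894 bp upstream in knockout (61.15) and 18100 bp downstream in wild type (61.13); at Dmc1, 12096 bp upstream in wild type (50.20, where the lowest score of the list is 50.01); and in the knockout list 2384 bp upstream of Mael (59.10) and 5377 bp upstream of Tdrkh (60.93). Fkbp6 was the only one of the 35 with both a KAP1 peak and H3K9me3 over its start in wild-type cells.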

How the data were processed

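RNA was sequenced from 1 library per group, each a pool of duplicate cultures as the labels' protocols state. Bowtie and the mm9 build are named per the submitters' processing notes; the read counter and depth were not stated. RPKM values per RefSeq transcript were deposited by the authors in 2 tables (22631 rows for ES cells and 22630 for MEFs) and a knockout/wild-type ratio that matched the quotient of both columns. The ES columns are named by genotype alone and were read as ES3, since the other ES pair in the labels is a knockdown. Region lists were deposited with no score for H3K9me3 and with a score per peak for KAP1, by the authors. Libraries of Rex1GFP cells, of H3K27ac and of inputs were not analysed here.

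Ratios were log2((knockout + 1)/(wild type + 1)) within a table. A gene was called measured when either library reached 1 RPKM, and 2-fold or more was the threshold; no test is possible with 1 library per group. Symbols missing or damaged in 820 ES and 817 MEF rows, none of them members, were filled from a GRCm38.p6 gene table by transcript. A region counted as overlapping from 1 bp. All 35 members are accounted for; genes of other lists were named when among the 4 with the largest absolute ES3 ratio. The members and lists were chosen with earlier results of these data known. Scripts (Python 3.11.15, pandas 2.3.3, numpy 2.4.6) were tested on simulated data.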

Additional observations from a re-analysis of the deposited data

Results flagged for a closer look

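Tdrkh, the piRNA-trimming factor, was the only germline gene measured in both cell types, and its knockout-to-wild-type log2 ratio was 0.82 in ES3 cells and -0.29 in MEFs, opposite in sign. The difference between the ratios was 1.11. It was not tested, since each value comes from 1 library per genotype. In ES3 cells Tdrkh reached 1 RPKM in the knockout library alone, with 1.64 RPKM against 0.491 RPKM in wild type. With wild type under 1 RPKM, passing the filter fixed the sign of its ES3 ratio.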

How the results depend on the processing

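No paired analysis was possible because each group is 1 library, and for the same reason no replicate could be left out. Among the 18 measured ES3 genes and Tdrkh in MEFs, for which ratios were recomputed, no gene's ratio changed sign under the alternatives run, but the ES3 median did with the 5 RPKM filter. In ES3 cells the 0 higher and 3 lower calls became 5 and 5 with a pseudocount of 0.1 RPKM. Over all 12024 measured symbols, 1508 higher and 382 lower calls became 2130 and 601. With no pseudocount (added after seeing the data) the germline calls were 12 and 6 of 32 genes, beside 3505 and 918 of 15617 symbols. The lower germline calls became 1 (Tex19.1) with a pseudocount of 5 RPKM and 0 at a 3-fold threshold, and centring added Mael. The higher ones stayed at 0 in these settings. Over all 12024 symbols, 538 were higher and 164 lower with a pseudocount of 5 RPKM, and 595 and 111 at 3-fold. Measured genes numbered 35 with no filter and 6 with a filter at 5 RPKM. The median log2 ratio was 0.34 and 0.10 with pseudocounts of 0.1 and 5 RPKM, 0.66 with none, 0.19 with no filter, -0.75 with the 5 RPKM filter, 0.21 with a filter on the mean, 0.15 centred on the median and 0.13 centred within bins of gene span. Its sign therefore rests on genes under 5 RPKM. In MEFs 35, 0 and 15 genes were measured with no filter, the 5 RPKM filter and no pseudocount; the last gave 3 higher and 3 lower. For wild-type ES3 cells over wild-type MEFs the 15 higher and 1 lower became 4 and 0 with a pseudocount of 5 RPKM; the median was 4.08 and 0.53 with pseudocounts of 0.1 and 5 RPKM and 1.38 centred. The cause was not tested beyond these settings.

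For windows of 1, 5, 50 and 100 kb, knockout H3K9me3 regions lay near 5, 7, 20 and 29 genes. These are 14.3%, 20.0%, 57.1% and 82.9% of the 35, against 3.22%, 8.44%, 46.6% and 70.0% of all symbols. Wild-type regions lay near 7, 8, 21 and 28 genes at 1, 5, 50 and 100 kb (20.0%, 22.9%, 60.0% and 80.0%, against 2.45%, 7.36%, 47.3% and 69.3% of all symbols). Wild-type-only regions lay near 5, 13 and 20 genes at 5, 50 and 100 kb (14.3%, 37.1% and 57.1%, against 4.22%, 36.1% and 57.0%). KAP1 peaks in knockout over input lay near 0, 1, 8 and 12 genes at 1, 5, 50 and 100 kb, and near 0 within 20 kb when peaks under the median score were left out. At 5, 50 and 100 kb these are 2.86%, 22.9% and 34.3%, against 1.48%, 11.7% and 21.5% of all symbols. Peaks in wild type over input lay near 1 gene up to 10 kb, 5 at 50 kb and 11 at 100 kb. At 5, 50 and 100 kb the shares were 2.86%, 14.3% and 31.4%, against 1.95%, 16.6% and 29.3% of all symbols. Peaks in wild type over knockout lay near 1 gene up to 10 kb and 8 at 100 kb. At 5 and 100 kb the shares were 2.86% and 22.9%, against 1.35% and 22.1%. Depth is unknown, so no counting interval can be given for values under 1 RPKM.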
